A study of Mus musculus with 14 samples.

Results

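The 50 genes described here encode the core machinery of the cell division cycle. They were chosen by name, as a list of well known cell cycle and DNA replication genes, and all 50 were found among the 43432 genes of the deposited expression table. All 50 also passed the filter on low values that left 17390 genes for testing. By role, 10 control entry into S phase, 16 act in DNA replication (9 at replication origins and 7 at the fork or in nucleotide supply), and 24 act in mitosis (14 regulators and 10 structural or motor proteins).

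RNA-seq was run on cells sorted from mouse lung as SiglecF-positive and CD11c-positive, the surface pattern of alveolar macrophages, and separated into cells with high and low surface MHC class II (MHCII), the antigen-presenting molecule. The donors were male 129S1 mice aged 10 to 12 weeks that had received bleomycin, a DNA-damaging drug used to provoke lung injury and fibrosis, or water into the trachea. Bleomycin-treated mice gave MHCII-low and MHCII-high cells at 2 weeks and at 4 weeks, with 3 libraries in each of these 4 groups. The controls were 2 libraries of MHCII-low cells from mice given water, with the replicate numbers 1 and 3. No MHCII-high cells of water-treated mice enter the comparisons. The bleomycin dose is labelled 3 U/k. Nothing in the labels says whether replicates came from separate animals, so the p-values measure the spread between these libraries, which may be partly technical.

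Cells that commit to division switch on D-type cyclins, whose kinases Cdk4 and Cdk6 inactivate the retinoblastoma protein and release E2F transcription factors. E2F then drives the genes for origin licensing, nucleotide synthesis and the replication fork, and a later wave of transcription supplies the mitotic kinases, spindle motors and chromosome proteins. Alveolar macrophages maintain themselves in the lung largely by local division, and macrophages recruited after injury can join them.

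Promoters of the replication and mitosis genes are shown first, because most genes of these 2 classes lay below the control level together and their promoters carried different short sequences. The RefSeq promoter table of build GRCm38.p6 covered 39 of the 50 genes with 45 promoters, each of 250 bases before and 50 after the start site. Ccnd1 and Ccnd2 were among the genes without an entry. Each promoter was searched on both strands for TTTGAA (the cell cycle homology region, a binding motif of the DREAM and MuvB complexes), for CCAAT (the motif of the factor NF-Y) and for TTTCCCGC and TTTGGCGC, which are exact forms of the E2F motif. The 4 sequences below are the 250 bases before the start site, 5′ to 3′ on the gene's own strand, with every match in capitals. Top2a and Kif11 stand for mitosis, and Mcm5 and Mcm6 for replication.
Top2a: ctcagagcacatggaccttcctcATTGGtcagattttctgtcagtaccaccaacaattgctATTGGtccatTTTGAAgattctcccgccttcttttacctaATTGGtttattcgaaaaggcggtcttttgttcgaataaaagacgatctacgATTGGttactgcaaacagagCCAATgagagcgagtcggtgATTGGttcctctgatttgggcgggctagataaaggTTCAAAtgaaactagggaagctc
Kif11: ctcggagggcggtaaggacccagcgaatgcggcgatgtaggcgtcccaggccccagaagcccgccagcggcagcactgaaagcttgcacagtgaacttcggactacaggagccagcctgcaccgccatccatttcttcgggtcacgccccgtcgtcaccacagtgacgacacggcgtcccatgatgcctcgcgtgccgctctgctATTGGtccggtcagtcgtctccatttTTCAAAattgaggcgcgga
Mcm5: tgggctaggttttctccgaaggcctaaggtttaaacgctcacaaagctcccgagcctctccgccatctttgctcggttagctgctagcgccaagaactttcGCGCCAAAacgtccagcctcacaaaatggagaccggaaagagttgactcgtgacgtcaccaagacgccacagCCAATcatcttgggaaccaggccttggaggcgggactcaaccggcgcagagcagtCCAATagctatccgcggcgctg
Mcm6: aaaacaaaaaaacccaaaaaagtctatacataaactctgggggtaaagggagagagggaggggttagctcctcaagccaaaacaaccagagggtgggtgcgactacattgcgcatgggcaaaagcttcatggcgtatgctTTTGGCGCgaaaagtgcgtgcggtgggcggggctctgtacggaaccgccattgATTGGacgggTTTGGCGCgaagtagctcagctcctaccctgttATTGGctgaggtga
The windows lie at chr11:99024190-99024439 (reverse strand) for Top2a, chr19:37376132-37376381 (forward strand) for Kif11, chr8:75109259-75109508 (forward strand) for Mcm5 and chr1:128359706-128359955 (reverse strand) for Mcm6. TTTGAA was present in 12 of the 18 mitosis genes with a promoter (66.7%), in 1 of 14 replication genes (7.1%) and in 20.2% of all 27025 genes in the table. CCAAT was present in 83.3% of the mitosis genes, 64.3% of the replication genes and 41.1% of all genes. The reverse held for the E2F forms: 0 of 18 mitosis genes had either one, against 6 of 14 replication genes (42.9%) and 1.8% of all genes. In the printed windows, Top2a had 2 TTTGAA and 6 CCAAT matches and Kif11 had 1 of each, while Mcm5 had 1 and Mcm6 had 2 TTTGGCGC matches beside 2 CCAAT matches each. No 2 matches overlap in the printed windows. These counts describe letters in a fixed window and say nothing of binding.

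Recovered reads per library ranged from 15106415 to 88059640, and mitochondrial ribosomal RNA took 3.12% to 28.99% of them. All 14 alveolar macrophage marker genes on the list used here were above 0 in every group, with a summed level of 425348 to 529736 normalized counts in MHCII-high and 536159 to 787265 in MHCII-low and control libraries. The members spanned a wide range of levels. Per kilobase of exon, averaged over the 14 libraries, Cdk6 (1988 normalized counts per kb), Ccnd2 (1757), Mki67 (656), Pcna (563) and Mcm3 (410) were highest, and Mybl2 (16.4), Stmn1 (17.8) and Ccnb1 (18.0) lowest. Cdc20 and Stmn1 rested on fewer than 10 reads in their lowest library, Cdc20 on 2. Library preparation kept no strand information according to the kit named in the labels, and 21 of the 50 genes overlap another gene. The 4-week MHCII-high replicate 3 stood apart: 18 of 50 members (36.0%) had their lowest value there, against 10.7% of all genes tested.

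**Figure D1:**
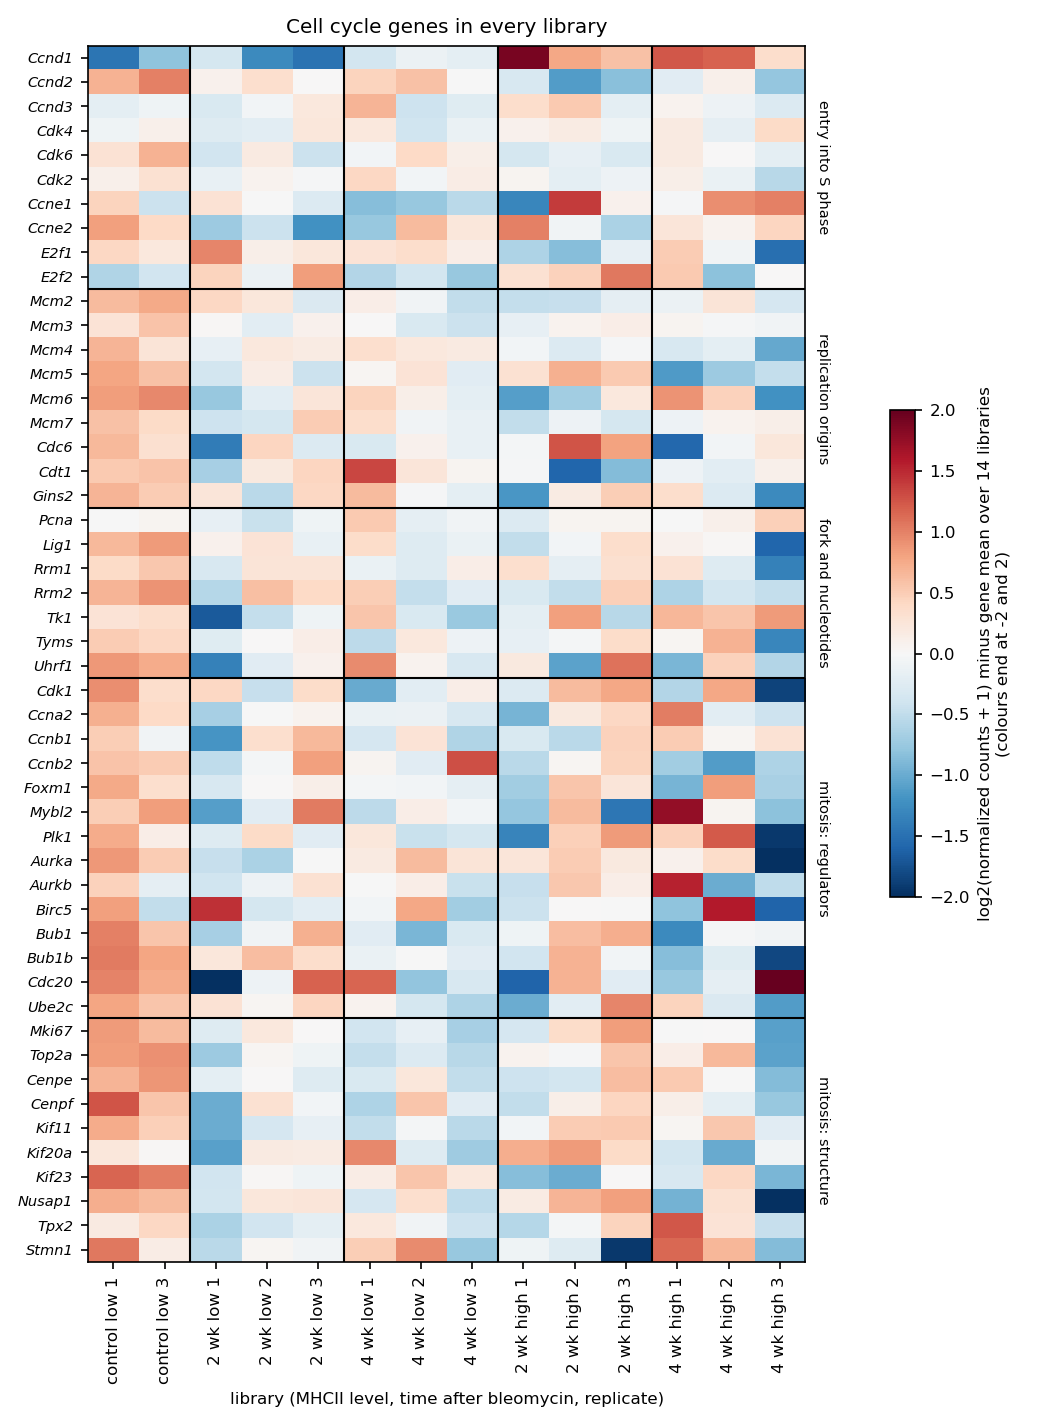
Level of each of the 50 genes in each of the 14 libraries, as log2(normalized count + 1) minus the gene's mean over the libraries (red above, blue below, colours ending at -2 and 2). Rows are genes grouped by role and columns are libraries grouped by MHCII level and time; the 2 control columns are mostly red from Mcm2 downwards, and Ccnd1 in the top row is red in the 6 MHCII-high libraries and blue in the 8 others.

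Among the genes for S phase entry, Ccnd1 was higher and Ccnd2 lower in MHCII-high than in MHCII-low cells at 2 weeks, while Ccnd3, the third D-type cyclin, overlapped between them. Ccnd1, which encodes cyclin D1 (chr7:144929931-144939925, reverse strand, mm10), read 503, 266 and 231 normalized counts in the 3 MHCII-low libraries at 2 weeks and 500, 597 and 562 at 4 weeks. The MHCII-high libraries gave 2401, 1105 and 971 for Ccnd1 at 2 weeks and 1534, 1470.1 and 828 at 4 weeks, and the controls 234 and 371. All 6 MHCII-high libraries lay above all 8 MHCII-low libraries. At 2 weeks the difference was 4.36-fold (log2 2.12 ± 0.35, adjusted p 0.00108; the ± after a log2 fold change is its standard error, and adjusted p-values are from limma over all 17390 genes). At 4 weeks it was 2.23-fold and did not pass the threshold of 0.05 (log2 1.16 ± 0.35, adjusted p 0.0918). Averaged over both times it was 3.12-fold (log2 1.64 ± 0.25, adjusted p 0.000161). The change of the difference between the times was not resolved (-0.97 ± 0.50, adjusted p 0.888).

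Ccnd2 encodes cyclin D2 (chr6:127125162-127152193, reverse strand) and was the most abundant D-type cyclin per kilobase in each library. Its MHCII-low values were 9762, 11710.3 and 9269 at 2 weeks and 12609, 13916 and 9196 at 4 weeks. MHCII-high cells read 7423, 4242 and 5206 of Ccnd2 at 2 weeks and 7909, 9919 and 5431 at 4 weeks. Control values were 15016 and 18619, above the other 12 libraries. The 2-week groups did not overlap, while at 4 weeks the highest MHCII-high library exceeded the lowest MHCII-low one. Ccnd2 was lower in MHCII-high cells at 2 weeks (log2 -0.90 ± 0.22, adjusted p 0.0279) and as the mean of both times (-0.77 ± 0.16, adjusted p 0.00333), and at 4 weeks alone it did not pass (-0.64 ± 0.22, adjusted p 0.154). The 2-week call was lost with no filter on low values (adjusted p 0.101), without 2-week MHCII-low replicate 1 (adjusted p 0.082) or 2 (0.116), and without 2-week MHCII-high replicate 2 (0.197) or 3 (0.0836).

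Ccnd3, the gene of cyclin D3, read 1769.7 and 1896 in controls, 1627, 1948 and 2343 in MHCII-low libraries at 2 weeks and 3246, 1522 and 1708 at 4 weeks. In MHCII-high cells Ccnd3 read 2583, 2911 and 1768 at 2 weeks and 2121, 1887 and 1669.9 at 4 weeks. The groups overlapped, and the mean difference did not pass (log2 0.08 ± 0.17, adjusted p 0.841). The 3 cyclins D share the role of Cdk4 and Cdk6 partner, so their balance was also expressed per kilobase of exon. Ccnd1 made up 2.10% and 2.70% of the D-type cyclin sum in the controls, 3.00% to 6.50% in MHCII-low cells at 2 weeks and 4.80% to 7.50% at 4 weeks. It made up 18.5% to 28.2% in MHCII-high cells at 2 weeks and 15.9% to 19.7% at 4 weeks. The Ccnd2 level was 33.8 and 43.1 times the Ccnd1 level in the controls, and 11 to 29.6 times in MHCII-low cells after bleomycin. In MHCII-high cells it was 2.08 to 4.54 times. The sum of the 3 per kilobase was 1359 to 2338 in MHCII-high cells and 1953 to 2770 in MHCII-low cells after bleomycin, so the totals overlapped where the shares of Ccnd1 did not.

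**Figure D2:**
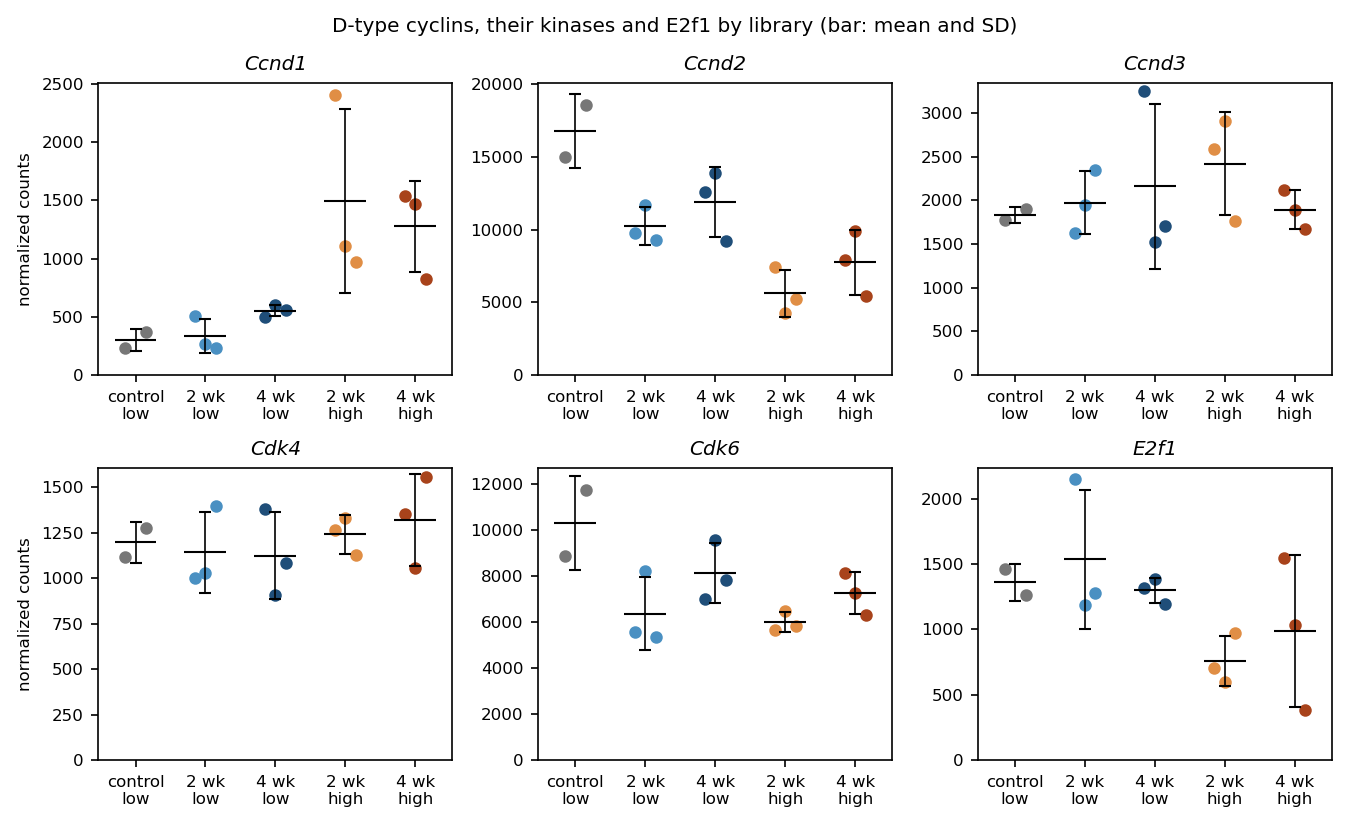
Normalized counts (y axis, from 0) of 3 D-type cyclins, Cdk4, Cdk6 and E2f1 in each library (points) by group (x axis), with the group mean and SD (bars). Ccnd1 lies between 828 and 2401 in the MHCII-high libraries and at or under 597 in all others; Ccnd2 is highest in the 2 controls and lowest on average in MHCII-high cells at 2 weeks.

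Markers of other cells also differed between the MHCII levels, not all in the same direction. At 2 weeks 7 of 12 markers of monocyte-derived macrophages passed as higher in MHCII-high cells, among them Ccr2 (log2 2.87), Cx3cr1 (4.53) and C1qc (5.02), and 7 passed at 4 weeks. Of 9 epithelial markers, 3 passed as higher at 2 weeks, such as Sftpc (2.03), and 1 at 4 weeks. For the mean of both times 2 passed as higher and 1 as lower, Scgb1a1 (-1.97, adjusted p 0.0211 by limma). At 4 weeks Scgb1a1 read 3332.5 to 6835 in MHCII-high and 19013 to 24712 in MHCII-low cells. Of the 14 alveolar macrophage markers, 7 passed as lower at 2 weeks, such as Marco (-1.91), and 4 at 4 weeks. The summed level of 9 dendritic cell markers, such as Flt3, Ccr7 and Fscn1, was 1260 to 2766 normalized counts in MHCII-high libraries and 103 to 354 in all MHCII-low and control libraries. All 9 were above 0 in each MHCII-high group and the controls, and 8 of 9 in both bleomycin MHCII-low groups, where Cd209a was at 0. The 12 lymphocyte markers summed to 934 to 4228 in MHCII-high libraries, where Ighm alone read 377 to 2975. In the others they summed to 120 to 649 except 4-week MHCII-low replicate 1, at 2447 (of which Ighm 2127). The T cell markers Cd3e, Trac and Cd8a overlapped between MHCII levels at each time, while Cd4 did not and was higher in MHCII-high cells. Of these 12, 11 were above 0 in the 4-week MHCII-low group (Cd79b at 0) and in the 4-week MHCII-high group (Nkg7 at 0), and 12 in the other groups. The part of these cells in the cyclin differences was not tested. Mitochondrial ribosomal RNA took 22.51% to 26.25% of reads in MHCII-high and 3.42% to 18.32% in MHCII-low libraries at 2 weeks. With that share as a covariate, the 2-week log2 difference was 2.27 for Ccnd1 (adjusted p 0.00739) and -1.10 for Ccnd2 (adjusted p 0.0349). In bulk libraries, a change in the share of cells that express a gene and a change in RNA per cell cannot be told apart. Oraov1 lies on the opposite strand, and its gene span, introns included, shares 1771 bases with that of Ccnd1. Oraov1 read 346 to 456 in MHCII-low and 188 to 366 in MHCII-high cells at 2 weeks, with overlap. The antisense gene 9330179D12Rik, whose span shares 2805 bases with that of Ccnd2, read 1.2 to 176 over the 14 libraries.

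The other genes of S phase entry separated the MHCII levels less clearly. Of the 10, Ccnd1 and Ccnd2 passed at 2 weeks; no member of the other classes did, so 2 of 50 passed against 2.87% of all genes tested. In each direction this was 1 of 50, where 2.29% of all genes passed as higher in MHCII-high cells and 0.581% as lower. At 4 weeks 0 of 50 passed by limma (7 had an unadjusted p under 0.05; edgeR called 0 and DESeq2 2), where 2.5% of all genes passed, 1.96% higher and 0.535% lower. As the mean of both times 2 of 50 passed against 7.21% of all genes. These were 1 higher (5% of all genes) and 1 lower (2.21%). Cdk4, the cyclin D kinase, read 1118 and 1277 in controls, 1000.1, 1027 and 1399 and 1382, 905 and 1085 in MHCII-low cells at 2 and 4 weeks. Its MHCII-high values were 1266, 1329.5 and 1124 at 2 weeks and 1353, 1053 and 1556 at 4 weeks, and all groups overlapped (log2 0.18 ± 0.15 on average, adjusted p 0.541). Cdk6, its sister kinase, read 8862 and 11756 in controls and 5551, 8210.3 and 5355 in MHCII-low cells at 2 weeks. At 4 weeks MHCII-low cells gave 6991, 9579 and 7852, and MHCII-high cells gave 5673, 6489.6 and 5837 at 2 weeks and 8161, 7291 and 6321 at 4 weeks. Of the 12 bleomycin libraries, only 4-week MHCII-low replicate 2 exceeded the lower control for Cdk6.

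Cdk2, the kinase of cyclins E and A, read 677 and 771 in controls, 566, 659 and 619 in MHCII-low libraries at 2 weeks and 837, 605 and 699 at 4 weeks. MHCII-high cells read 649, 549.7 and 584 and 679, 571 and 426 of Cdk2 at 2 and 4 weeks. The MHCII levels overlapped at each time, and the 6 libraries of 2 weeks were all below both controls. Ccne1, the cyclin E1 gene, was low and scattered, with 105 and 56.8 in controls, 94, 76.4 and 63.3 in MHCII-low libraries at 2 weeks and 42, 45.1 and 52.2 at 4 weeks. MHCII-high cells spread from 30.4 to 204: 30.4, 204 and 81.7 at 2 weeks and 74.9, 148 and 155 at 4 weeks. At 4 weeks all 3 MHCII-high libraries were above the 3 MHCII-low ones for Ccne1, with a difference that did not pass (log2 1.35 ± 0.66, adjusted p 0.339).

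E2f1, an activator of replication genes, read 1460 and 1262 in controls, 2152, 1186 and 1277 in MHCII-low libraries at 2 weeks and 1319, 1386 and 1198 at 4 weeks. For E2f1 the MHCII-high values were 709, 601 and 975 at 2 weeks and 1548, 1036 and 381 at 4 weeks. The 2-week groups did not overlap, and the 4-week MHCII-high libraries spread on either side of the MHCII-low ones. Its difference did not pass at 2 weeks (-0.99 ± 0.35, adjusted p 0.156) or on average (-0.80 ± 0.25, adjusted p 0.0552). E2f2, a second activator E2F, had the smallest p of the members between 4 and 2 weeks in MHCII-low cells. It read 1365, 924 and 1781 at 2 weeks and 666, 776 and 591 at 4 weeks there, without overlap, and 658 and 763 in controls. MHCII-high cells read 1230.2, 1372 and 2071 and 1442, 563 and 1003 of E2f2 at 2 and 4 weeks. The difference between the times in MHCII-low cells did not pass (-0.96 ± 0.30, adjusted p 0.221), and neither did that of Ccnd1 (0.81 ± 0.35, adjusted p 0.563). In that comparison 0 of 50 members passed by limma, edgeR and DESeq2 (2 at an unadjusted p under 0.05), against 0.857% of all genes (0.109% higher and 0.748% lower). The groups did not overlap for 2 members that were higher at 4 weeks and 3 that were lower, against 7.22% and 6.76% of all genes.

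The replication genes did not separate the MHCII levels as a class. At 2 weeks 8 of 16 were above and 8 below 0 in the difference between MHCII-high and MHCII-low cells, from Cdt1 (-0.80 ± 0.41, adjusted p 0.364), the licensing factor, to Cdc6 (1.08 ± 0.57, adjusted p 0.379), which loads the helicase with it. At 4 weeks 12 of 16 were below 0 with a median log2 fold change of -0.35, against -0.03 for all genes tested, and none passed. Of the 3 MHCII-high libraries, replicate 3 was lowest: the median deviation of the replication genes from their own means was -0.48 there and -0.056 and -0.002 in replicates 1 and 2. Without it the median of all 50 members in this comparison went from -0.06 to 0.08. The median of the 16 replication genes alone was not computed without that library. Mcm4, a subunit of the replicative helicase, had the smallest p of the 50 members between MHCII levels at 4 weeks. It read 1420.1, 1311 and 1269.8 in MHCII-low and 903, 984 and 551 in MHCII-high cells at 4 weeks, without overlap. The 2-week values of Mcm4 were 1000.1, 1311 and 1267 in MHCII-low and 1085, 936 and 1113 in MHCII-high cells, which overlapped, and the controls read 1809 and 1351. The 4-week difference in Mcm4 did not pass (log2 -0.76 ± 0.23, adjusted p 0.0876). It passed with DESeq2 (adjusted p 0.0371) and without 4-week MHCII-high replicate 2 (0.0466).

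Mcm5, another helicase subunit (chr8:75109569-75128439, forward strand), changed within MHCII-high cells. Its MHCII-high values were 451, 601 and 527 at 2 weeks and 167, 221 and 263 at 4 weeks, with no overlap. MHCII-low cells read 284, 406 and 271 of Mcm5 at 2 weeks and 376, 441 and 312 at 4 weeks, and controls 637 and 549. Mcm5 was thus above the MHCII-low range at 2 weeks and below it at 4 weeks. It fell by 1.29 on the log2 scale from 2 to 4 weeks in MHCII-high cells (log2 -1.29 ± 0.30, adjusted p 0.0371), the 1 call among 50 members where 1.07% of all genes passed (0.311% higher and 0.759% lower). The call did not hold with edgeR (log2 -1.29, adjusted p 0.0504) or with the mitochondrial ribosomal RNA share as a covariate (-1.19, 0.0657), where the size of the change was close to that above. It was also lost without control replicate 1 or 3, 2-week MHCII-low replicate 2, 4-week MHCII-low replicate 2 or 3, any of the 3 2-week MHCII-high libraries, or 4-week MHCII-high replicate 1 (adjusted p 0.0508 to 0.119), with log2 changes of -1.44 to -1.11 over all left-out libraries.

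The interaction, the difference between MHCII levels at 4 weeks minus that at 2 weeks, had its smallest member p for Mcm5 (-1.53 ± 0.42, adjusted p 0.475), and 0 of 17390 genes passed it by limma (0%; 987 genes and 1 member at an unadjusted p under 0.05). DESeq2 called 60 genes and edgeR 0, none of them a member. Kif20a, a kinesin of cytokinesis, came next (-1.39 ± 0.68, adjusted p 0.876). It read 82.8, 201 and 199 in MHCII-low and 296, 321 and 233 in MHCII-high cells at 2 weeks. At 4 weeks Kif20a read 346, 149 and 109 in MHCII-low and 137, 87.9 and 169 in MHCII-high cells, and 207 and 181 in controls. All 3 MHCII-high libraries were above the MHCII-low ones at 2 weeks, and the groups overlapped at 4 weeks.

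Pcna encodes the sliding clamp of the fork and read 1317 and 1380 in controls, 1184, 971 and 1251 in MHCII-low libraries at 2 weeks and 1917, 1174 and 1269 at 4 weeks. Its MHCII-high values were 1104, 1375 and 1375 and 1319.5, 1422 and 1854 at 2 and 4 weeks. The MHCII levels overlapped at each time for Pcna, and the 2-week MHCII-low libraries were below both controls; pseudogene copies (Pcna-ps1, Pcna-ps2) make its count less certain. Rrm2, the regulatory subunit of ribonucleotide reductase, read 404 and 469 in controls, 168, 379 and 330.4 in MHCII-low libraries at 2 weeks and 353, 179 and 214 at 4 weeks. MHCII-high cells gave 203, 178 and 348 for Rrm2 at 2 weeks and 162, 195 and 180.1 at 4 weeks. Both controls were above the other 12 libraries for Rrm2. Tyms, thymidylate synthase, read 512 and 478 in controls, 304, 362 and 395 in MHCII-low libraries at 2 weeks and 249, 416 and 334 at 4 weeks. In MHCII-high cells Tyms read 322, 349.8 and 464 and 368, 581 and 145 at 2 and 4 weeks. All 6 MHCII-low libraries after bleomycin were below both controls for Tyms, and the MHCII-high libraries spread from 145 to 581.

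The mitosis genes likewise showed no call between MHCII levels. At 2 weeks 16 of 24 were above 0 with a median of 0.12, against 0.08 for all genes, and at 4 weeks 13 of 24 with a median of 0.03. Kif11, the motor that separates spindle poles, came closest. It read 333, 526 and 595 in MHCII-low and 641, 949 and 951 in MHCII-high cells at 2 weeks, without overlap. At 4 weeks Kif11 read 472, 644 and 457 in MHCII-low and 679, 967 and 569.6 in MHCII-high cells, which overlapped, and controls read 1115 and 922. Its mean difference did not pass (log2 0.65 ± 0.20, adjusted p 0.0502). Over all 50 members, 5 had MHCII-high libraries all above the MHCII-low ones at 2 weeks and 2 all below. Over all genes these shares were 12.9% and 8.26%. At 4 weeks 3 members were all above and 4 all below, against 8.26% and 8.13% of all genes. With both times pooled, 1 member (Ccnd1) was all above and 0 all below, against 2.31% and 0.989%.

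Within MHCII-high cells 17 of 24 mitosis genes were lower at 4 than at 2 weeks, with a median log2 fold change of -0.23 (all genes -0.07). Nusap1, a spindle microtubule protein, had the smallest p of them. It read 416, 598 and 660.3 at 2 weeks and 194, 461 and 91.3 at 4 weeks in MHCII-high cells. The MHCII-low values of Nusap1 were 289, 435 and 442 and 296, 471 and 262 at 2 and 4 weeks, and controls read 616 and 574. The 4-week MHCII-high range reached into the 2-week range, and the difference did not pass (-1.44 ± 0.43, adjusted p 0.105). The lowest 4-week value was again in replicate 3. Without that library the median of the 50 members in this comparison went from -0.14 to 0.11, and 22 instead of 31 members were below 0, so the direction of the median rested on it. Nusap1 passed without 4-week MHCII-high replicate 2 (adjusted p 0.0133). Over all 50 members 0 had 4-week MHCII-high libraries all above the 2-week ones and 3 all below, against 5.9% and 9.06% of all genes.

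**Figure D3:**
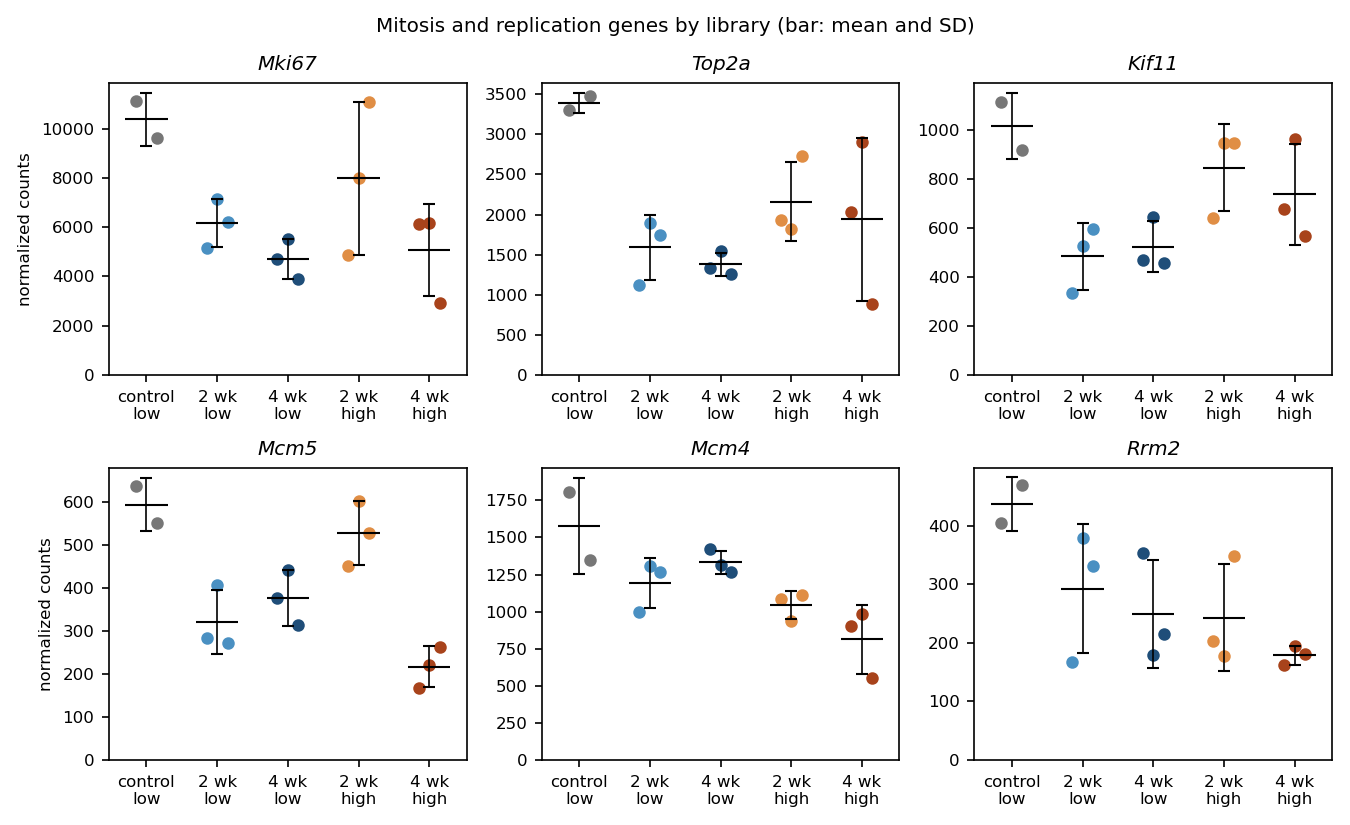
Normalized counts (y axis, from 0) of the mitosis genes Mki67, Top2a and Kif11 and the replication genes Mcm5, Mcm4 and Rrm2 in each library (points) by group (x axis), with the group mean and SD (bars). Both controls of Top2a read at least 3306, against at most 2901 in the 12 other libraries; Mcm5 separates the 2-week from the 4-week MHCII-high libraries.

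The widest pattern over the set was between bleomycin and control cells. In MHCII-low cells at 2 weeks 45 of 50 members were below the control level, with a median log2 fold change of -0.59, against -0.09 for all genes tested. At 4 weeks 47 of 50 were below it, with a median of -0.59, against -0.06 for all genes. The 2 comparisons share the control libraries and are not independent. No single member passed in either one by limma: 0 of 50 at 2 weeks, where 1.91% of all genes passed, 1.48% higher and 0.426% lower (edgeR called 0 members and DESeq2 4), and 0 of 50 at 4 weeks, where 0.046% passed, 0.0345% higher and 0.0115% lower (edgeR 0 and DESeq2 1). At an unadjusted p under 0.05 there were 15 members (30%, against 12.7% of all genes) at 2 weeks and 12 (24%, against 6.12%) at 4 weeks. All 3 bleomycin libraries lay below both controls for 32 members at 2 weeks (21.6% of all genes did so) and for 26 at 4 weeks (16%). They lay above both controls for 1 member at each time, E2f2 at 2 weeks and Ccnd1 at 4 weeks, against 13.7% and 11.4% of all genes. Of the 50 members, 22 (44.0%) had their highest value of all 14 libraries in a control, against 10.1% of all genes.

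Mki67 encodes the Ki-67 protein that coats mitotic chromosomes and marks cycling cells. It read 11128 and 9617 normalized counts in the controls. The MHCII-low libraries gave 5162, 7145 and 6196 at 2 weeks and 4721, 5507 and 3895 at 4 weeks. MHCII-high cells read 4883, 7976 and 11072 of Mki67 at 2 weeks and 6136, 6180.1 and 2924 at 4 weeks. All 6 MHCII-low libraries were below both controls, and the MHCII-high libraries ran from 2924 to 11072, almost the whole range of the data. The mean was 10373 ± 1068 (SD, n = 2) in controls and 4708 ± 806 (n = 3) in MHCII-low cells at 4 weeks, a log2 difference of -1.15 ± 0.30 that did not pass (adjusted p 0.307). At 2 weeks it was -0.76 ± 0.30, adjusted p 0.27.

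Top2a, the topoisomerase that untangles replicated chromosomes, read 3306 and 3478 in controls. MHCII-low cells read 1123, 1897 and 1748 of it at 2 weeks and 1336, 1540.2 and 1263 at 4 weeks, and MHCII-high cells 1937, 1815 and 2728 and 2033, 2901 and 885. The controls were the 2 highest of the 14 libraries. The mean was 3392 ± 122 (SD, n = 2) in controls and 1379.9 ± 144 (n = 3) in MHCII-low cells at 4 weeks. The log2 difference of -1.30 ± 0.34 was, with that of Mki67, the one with the smallest p among the members, and it did not pass (adjusted p 0.302). At 2 weeks it was -1.13 ± 0.34, adjusted p 0.106. Without 4-week MHCII-high replicate 3, which enters only through the shared estimate of spread, the adjusted p at 4 weeks was 0.0354.

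At 2 weeks Kif23, a motor of the central spindle, and Kif11 had the smallest p-values against control. Kif23 read 1558 and 1419 in controls, 535, 709 and 656 in MHCII-low libraries at 2 weeks and 773, 1019.6 and 805 at 4 weeks. Its MHCII-high values were 386, 349.8 and 698 and 556, 927 and 368 at 2 and 4 weeks. The controls exceeded all 12 other libraries for Kif23. The 2-week difference was -1.24 ± 0.34, adjusted p 0.0751 for Kif23 and -1.10 ± 0.31, adjusted p 0.0814 for Kif11. Kif23 passed with DESeq2 (adjusted p 0.0205) and without 4-week MHCII-high replicate 2 (0.0365) or 3 (0.0298), and Kif11 with DESeq2 (0.0266).

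Cdk1, the master kinase of mitosis, and its partner Ccnb1, cyclin B1, were expressed at low levels and scattered more. Cdk1 read 223 and 149 in controls, 154, 84.4 and 150.3 in MHCII-low libraries at 2 weeks and 57.5, 100 and 127 at 4 weeks. MHCII-high cells gave 95.7, 180.2 and 199.8 and 77, 199 and 31.6 for Cdk1 at 2 and 4 weeks. The 3 4-week MHCII-low libraries were below both controls, and at 2 weeks the groups overlapped. Ccnb1 read 101 and 68 in controls, 31.3, 90.8 and 113 and 56.6, 87.3 and 46.9 in MHCII-low cells, and 58.1, 49.2 and 99 and 102, 73.7 and 87.6 in MHCII-high cells at 2 and 4 weeks. All groups overlapped the controls for Ccnb1.

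By role, the genes of the chromosomes and spindle lay furthest below control. All 10 were below 0 at both times, with medians of -0.86 at 2 weeks and -0.90 at 4 weeks. Of these, 9 and 7 had no overlap with the controls, against 21.6% and 16% of all genes that lay below them. At 2 weeks the 10 genes ran from Kif23 to Kif20a (-0.37 ± 0.54, adjusted p 0.851). The 14 mitotic regulators had medians of -0.53 and -0.69, with 13 and 14 below 0, and ran at 2 weeks from Cdc20 (-1.50 ± 1.13, adjusted p 0.653), the activator of anaphase, to Birc5 (0.13 ± 0.81, adjusted p 0.973), the survivin gene. At 4 weeks Bub1, a checkpoint kinase, was the lowest of them (-1.26 ± 0.49, adjusted p 0.711). The 9 origin genes had medians of -0.57 and -0.60, all below 0 at both times, with Mcm6 the lowest at 2 weeks (-1.14 ± 0.47, adjusted p 0.287) and Mcm2 at 4 weeks (-0.83 ± 0.29, adjusted p 0.674). The 7 fork and nucleotide genes had medians of -0.66 and -0.57, with Uhrf1, which brings DNA methylation to new strands, the lowest at 2 weeks (-1.30 ± 0.56, adjusted p 0.318) and Rrm2 at 4 weeks (-0.86 ± 0.44, adjusted p 0.822). The 10 genes of S phase entry had medians of -0.04 and -0.09, beside -0.09 and -0.06 for all genes. Their range at 2 weeks was wide, from Ccne2, the cyclin E2 gene (-1.39 ± 0.63, adjusted p 0.349), to E2f2 (0.89 ± 0.34, adjusted p 0.246), and at 4 weeks Ccnd1 was the highest (0.90 ± 0.39, adjusted p 0.761).

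Summed over the 24 mitosis genes, the 2 controls read 28260 and 24941 normalized counts. MHCII-low cells read 12612, 17276 and 16585 at 2 weeks and 13702, 15567 and 11919.8 at 4 weeks. MHCII-high cells read 12675, 19157 and 24611 at 2 weeks and 18359, 18271 and 8736 at 4 weeks. Mki67 alone held 11128 and 9617 of the control sums and 4883 to 11072 of the 2-week MHCII-high sums. The median deviation of the 24 genes from their own means was -0.422, 0.425 and 0.436 in these 2-week MHCII-high libraries. The MHCII-low sums were all below the controls, and the MHCII-high sums had an SD of 5976 at 2 weeks and 5530 at 4 weeks, against 2517 and 1824 in MHCII-low cells. Over the 16 replication genes the controls read 14298 and 14740.3, and the 12 other libraries 7935 to 12643, all below both controls. In MHCII-high cells, which differ from the controls in MHCII level as well as in treatment, all 3 libraries were below both controls for 23 members at 2 weeks (46%, against 16.4% of all genes) and for 26 at 4 weeks (52%, against 15%).

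The libraries differed from the controls in other ways too. Mitochondrial ribosomal RNA took 21.7% and 24.1% of reads in the controls, 3.42% to 18.3% in MHCII-low libraries at 2 weeks and 3.12% to 23.2% at 4 weeks. With this share as a covariate, the members' median was -0.56 at 2 weeks and -0.42 at 4 weeks, 46 members were below 0 at each time and none passed. Controls were sequenced to 88059640 and 45064664 reads and MHCII-low bleomycin libraries to 15770506 to 64622823. Of the 12 markers of monocyte-derived macrophages, 7 passed as higher than control in MHCII-low cells at 2 weeks, among them C1qb (log2 5.41), Apoe (5.35) and C1qa (5.14), and 1 at 4 weeks. Their sum was 121120 and 135049 in controls and 138234 to 182222 at 2 weeks, but most of it is Mrc1 (104466 and 115602 in controls), which the alveolar macrophage list holds too. Of 5 neutrophil markers tested, Cxcr2 passed as higher at 2 weeks (584 to 1109.8 in controls and 3460.2 to 4784 at 2 weeks), while Csf3r overlapped the controls. Of 7 fibroblast and endothelial markers, 0 passed at either time. All libraries lay above both controls for 4 of the 7 at 2 weeks and below for 0, against 13.7% and 21.6% of all genes. At 4 weeks 1 of the 7 lay above and 3 below, against 11.4% and 16%. Their sum was 491.5 to 781 in controls, 759.5 to 1309 at 2 weeks and 308 to 609 at 4 weeks. Of 9 epithelial markers, Sftpc (3.47) and Cdh1 (1.01) passed as higher at 2 weeks and none at 4 weeks. At 2 weeks 5 of the 9 were below the control level. For 3 of these, Nkx2-1, Sftpd and Scgb1a1, all libraries lay below both controls, as for 21.6% of all genes. For 3 others, Sftpc, Cdh1 and Epcam, all libraries lay above both controls, against 13.7% of all genes. At 4 weeks all 9 were above the control level, with a median log2 fold change of 0.65, against -0.06 for all genes. For 8 of the 9 all 4-week libraries lay above both controls, against 11.4% of all genes. The epithelial sum, mostly Scgb1a1, was 13182 and 22578 in controls, 9728 to 16503 at 2 weeks and 25013 to 32432 at 4 weeks. The part of these differences in the lower cell cycle levels was not tested.

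**Figure D4:**
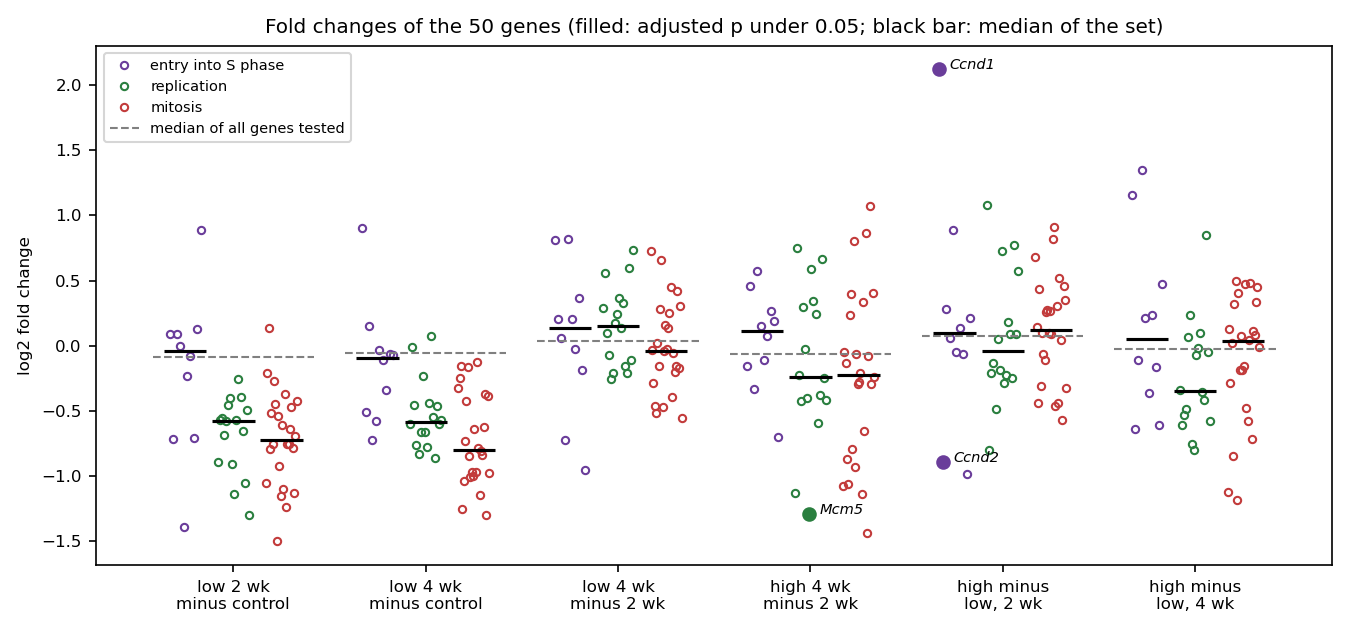
Log2 fold change (y axis) of each of the 50 genes (points, coloured by role) in 6 comparisons (x axis), with the median of each role (black bars) and of all genes tested (dashed lines); filled points passed an adjusted p of 0.05. Against control most replication and mitosis genes lie below the dashed line, with medians near -0.6 to -0.8, while between MHCII levels at 2 weeks Ccnd1 and Ccnd2 stand apart.

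Further genes of the same pathways, taken from lists of textbook members outside the 50, were read in the same way. Of 57 more mitosis genes tested, 51 were below control in MHCII-low cells at 2 weeks, with a median of -0.81, and 3 passed, all lower. Of all genes 55.7% were below 0 there, and 1.91% passed, 0.426% as lower. The 3 mitosis genes that passed were Anln, Prc1 and Knl1. Anln (-1.20 ± 0.21, adjusted p 0.00248) is the anillin of the cleavage furrow. Prc1 (-1.67 ± 0.33, adjusted p 0.00657) bundles the central spindle, and Knl1 (-1.50 ± 0.39, adjusted p 0.0497) is a kinetochore scaffold. Prc1 read 888 and 908 in controls, 226, 263 and 378 in MHCII-low libraries at 2 weeks and 238, 319.6 and 293 at 4 weeks. For Anln these values were 3704 and 3067, then 1428, 1588 and 1401, then 1999.8, 2754 and 2152. Controls were above every MHCII-low bleomycin library for both genes. At 4 weeks 51 of 57 were again below control (median -0.78), against 54.9% of all genes, and none passed. Of 41 more replication genes tested, 33 were below control at 2 weeks (median -0.42) and 30 at 4 weeks (-0.39), and none passed in any of the 8 comparisons.

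Between MHCII levels, 1 of the 57 mitosis genes passed at 2 weeks, where 2.87% of all genes passed, 2.29% as higher. The same gene was the 1 call for the mean of both times, where 7.21% of all genes passed, 5% as higher. This was Espl1, the separase that cleaves cohesin (1.91 ± 0.47, adjusted p 0.0275 at 2 weeks). It read 62.6, 172 and 259.9 in MHCII-low and 333, 1023 and 442 in MHCII-high cells at 2 weeks, without overlap. Kif18b, a microtubule-depolymerising kinesin, fell between 2 and 4 weeks in MHCII-high cells (-2.15 ± 0.52, adjusted p 0.0485), from 268, 282 and 179.8 to 41.6, 31.4 and 113. It was the 1 call among the 57 in that comparison, where 1.07% of all genes passed, 0.759% as lower. Of 30 genes of cell cycle inhibitors, the retinoblastoma and E2F network and checkpoints, 2 passed between MHCII levels at 2 weeks, in opposite directions, against 2.87% of all genes (2.29% higher and 0.581% lower). Cdkn1a, the p21 kinase inhibitor, was lower in MHCII-high cells (-0.91 ± 0.20, adjusted p 0.014), with 6123, 6268 and 6817 against 16785, 12110 and 8452 in MHCII-low cells. Btg2, an antiproliferative gene, was higher (0.81 ± 0.21, adjusted p 0.0371), with 4895, 5082 and 4047 against 2038, 2852 and 3199.6. The groups did not overlap for either gene. E2f8, a repressor E2F, was higher as the mean of both times (0.97 ± 0.21, adjusted p 0.00574). No gene of this list passed against control.

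Across the 14 libraries, the members' levels were compared with that of Mki67 as a description. The libraries share groups, depth and normalization, so no p is given. The median correlation with Mki67 was 0.62 for the other 23 mitosis genes, 0.56 for the 16 replication genes, 0.17 for the 10 genes of S phase entry and 0.03 for all other genes tested. After subtracting each group's mean the medians were 0.67, 0.34, 0.17 and -0.01. Top2a (0.86), Nusap1 and Cenpe (both 0.83) were closest, and Pcna (-0.28) and Ccnd1 (-0.25) lay at the other end. With Ccnd1 as the reference, the median was -0.19 for the mitosis genes and -0.29 for the replication genes. Of the members, 9 of 49 were above 0, against 8619 of 17389 genes tested. After subtracting each group's mean, the Ccnd1 medians were -0.15 for mitosis, -0.14 for replication and -0.01 for all genes tested.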

How the data were processed

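RNA-seq libraries of sorted mouse lung cells were made by amplification of oligo-dT-captured RNA and a transposase kit without molecular identifiers, per the labels' protocols. The authors deposited normalized counts per gene and library, a signal in which each library's read counts are divided by 1 scale factor and rounded to 1 decimal, per the file headers and values. STAR, DESeq2 and the build mm10 are named in the submitters' processing notes, with no versions; the annotation release is not given in the sources used here. The deposited GC percent and exon length per gene were used as given.

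Values in a library were whole multiples of 1 step for 99.57% to 100% of the values checked (tolerance 0.05, the rounding), which gave back the reads. Since the main values are normalized, the main test was limma 3.58.1 (R 4.3.3; trend, robust spread off) on log2(normalized count + 1), so fold changes of low genes are understated. All 14 libraries entered 1 fit with 5 groups. Genes needed at least 10 normalized counts in 2 libraries (17390 of 43432 kept), and Benjamini-Hochberg adjustment ran over all of them, with a threshold of 0.05, in each of 8 comparisons. Of the 43432 genes, 652 have no symbol. Promoters were matched by symbol.

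Alternatives were a replicate block, pseudocounts of 5 and 0.5, no filter, a filter of 50 in 3 libraries, the mitochondrial ribosomal RNA share as covariate, TMM scaling, removal of a GC trend, edgeR 4.0.16 and DESeq2 1.42.0 on recovered reads, and leaving out each library. The fit was tested on simulated data. The members, gene lists and tests were chosen with earlier results of these data known. In each comparison, named genes are the members that passed and, where fewer than 2 passed, the 2 with the smallest p; a fixed set of 16 is given in every library, and others as extremes of their class. Of the other lists, up to 3 genes that passed are named. Results for 1 gene of these lists are not reported here. Python 3.11.15, numpy 2.4.6, pandas 2.3.3 and matplotlib 3.10.9 were used.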

Additional observations from a re-analysis of the deposited data

How the results depend on the processing

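The count of members past the threshold moved with the processing. Between MHCII levels at 2 weeks it was 1 with no filter on low values, and 1 to 3 when each library was left out. At 4 weeks it was 1 with the replicate block, 2 with DESeq2 and 0 to 2 over the left-out libraries. For the mean of both times it was 4 with the replicate block, with the stricter filter, with TMM scaling and with the GC trend removed, 5 with DESeq2, and 2 to 5 over the left-out libraries. Against control at 2 weeks it was 2 with the replicate block, 4 with DESeq2 and 0 to 2 over the left-out libraries, and at 4 weeks 1 with DESeq2 and 0 to 1. Within MHCII-high cells it was 0 with the mitochondrial ribosomal RNA covariate and with edgeR, and 0 to 3 over the left-out libraries. It was 0 under all alternatives for MHCII-low cells between times and for the interaction. Of the genes recomputed under each alternative (Ccnd1, Ccnd2, E2f2, Kif11, Kif20a, Kif23, Mcm4, Mcm5, Mki67, Nusap1 and Top2a, in the comparisons they were chosen for), none changed sign. Kif11 passed against control at 2 weeks with the replicate block (adjusted p 0.0295).

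DESeq2 called 1055 of all genes between MHCII levels at 2 weeks (limma 499), 911 at 4 weeks (434), 2122 for the mean (1254), 665 and 74 against control (332 and 8) and 638 within MHCII-high cells (186). Ccnd1 at 2 weeks and Ccnd1 and Ccnd2 for the mean passed in all 24 alternatives, and Ccnd1 at 4 weeks passed with the replicate block (adjusted p 0.0249) and DESeq2 (0.0211). Members below control numbered 43 to 46 at 2 weeks and 42 to 49 at 4 weeks over the alternatives. Removing the GC trend moved the median of all genes against control at 2 weeks from -0.09 to 0.05, and that of the members from -0.59 to -0.51. It moved the interaction's median of all genes from -0.06 to 0.05. Without 4-week MHCII-high replicate 3 the members' median between MHCII levels went from -0.06 to 0.08 at 4 weeks.

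Same-numbered MHCII-high and MHCII-low libraries deviated together with correlations of 0.009 to 0.107, and differently numbered ones with -0.124 to 0.077. Not every library correlated best with its own number, and the labels do not say what the numbers mark. The numbers were therefore not taken to pair the libraries in the main test, and the replicate block was an alternative. Only 2 controls and 3 libraries a group limit the precision, and counting error was smallest for deep libraries: Cdc20 and Stmn1 rest on fewest reads.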

Other observations

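Some genes that carry growth signals to macrophages were read beside the cell cycle genes. Csf2rb, the shared receptor chain for GM-CSF, was above the controls in MHCII-low cells at 2 weeks (log2 0.82 ± 0.17, adjusted p 0.00916), and so was Csf1r, the receptor for M-CSF (0.77 ± 0.18, adjusted p 0.0219). Between MHCII levels at 2 weeks, Maf, a transcription factor of macrophages, was higher in MHCII-high cells (2.77 ± 0.52, adjusted p 0.00398) and Egr2 lower (-0.62 ± 0.15, adjusted p 0.0249). At 4 weeks Maf (3.16 ± 0.52, adjusted p 0.000962) and Egr1 (1.30 ± 0.26, adjusted p 0.00586) were higher in MHCII-high cells. Csf1, the gene of M-CSF, was also higher there (adjusted p 0.0422) and is named after its value was seen. All adjusted p-values are from limma over the 17390 genes tested.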
